A study of Rattus norvegicus with 6 samples.

Results

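Chromatin modifiers and remodellers are the enzymes and complexes that write and erase marks on histones and DNA and that move nucleosomes. A list of 57 such genes was taken by gene symbol from the deposited gene count table of rat bone marrow mesenchymal stem cells (BMSCs). Of the 57 genes, 53 had a row among the 33508 genes of the table and 50 passed the filter on low counts and were tested, among 12104 genes tested in all. The 4 listed genes with no row under their symbol were Kmt2c, Kmt2d, Ep300 and Kat2b, and they were not analysed here. Chd7, Hdac6 and Tet1 had a row but did not pass the filter.

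BMSCs-OE-FNDC5 were cells transduced with a lentivirus that overexpresses Fndc5, the gene of the membrane protein from which irisin is released. BMSCs-OE-NC were cells transduced with the negative control lentivirus. There were 3 libraries in each group. All cells of both groups came from the marrow of 2-month-old rats (male Sprague-Dawley rats by the methods) and were used after 3 passages. They received their lentivirus over 72 h (multiplicity of infection 10). They were kept under hypoxia and serum deprivation (H/SD) for 24 h at 1% O2, 94% N2 and 5% CO2. By the methods, the H/SD medium held neither glucose nor serum. No group without H/SD and no untransduced group entered the comparison. It was not stated whether replicate libraries represent different animals or transductions, so the p-values measure the spread between these libraries.

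Total counts were 16640635 to 17229490 in BMSCs-OE-FNDC5 and 17430287 to 17965722 in BMSCs-OE-NC. Libraries were scaled by TMM, whose factors were 0.877 to 0.882 in BMSCs-OE-FNDC5 and 1.13 to 1.14 in BMSCs-OE-NC. Levels are given as counts per 1000000 (CPM) on that scale, and a positive log2 fold change means a higher level in BMSCs-OE-FNDC5 than in BMSCs-OE-NC. Fndc5 had 64195 to 65589 counts in BMSCs-OE-FNDC5 and 17 to 25 counts in BMSCs-OE-NC, so the libraries matched their labels. The marrow stromal markers Col1a1, Thy1 and Pdgfrb were present in all libraries, whereas Ptprc of blood cells was at 0 in all. The summed level of 12 stromal markers was 5334 to 5738 CPM in BMSCs-OE-FNDC5 and 7536 to 8103 CPM in BMSCs-OE-NC. They did not move together. Of the 11 tested, 7 were lower and 3 higher at an adjusted p under 0.05 (edgeR), against 38.8% and 36.9% of all tested genes. Thy1 (log2 fold change 1.29), Cd44 (0.41) and Eng (0.26) rose, whereas Pdgfra (-1.86), Cxcl12 (-1.72) and Pdgfrb (-1.62) were among those that fell. Lepr had 0 to 5 counts in a library and was not tested. The 18 haematopoietic markers with a row, 9 of which were at 0 in all libraries, summed to 202 to 210 CPM in BMSCs-OE-FNDC5 and 100 to 105 CPM in BMSCs-OE-NC, mostly from Cd14. The part of these differences in the results on chromatin genes was not tested.

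Histone methyltransferases with a SET domain and their opposing demethylases set the methylation of histone lysines, and acetyltransferases and deacetylases do the same for acetylation. SWI/SNF, ISWI and CHD proteins use ATP to move or evict nucleosomes. Polycomb repressive complex 2 (PRC2) methylates H3K27 and marks silenced genes. DNMT enzymes methylate cytosine and TET enzymes oxidise the methyl group. Several of these proteins are very large, and their transcripts are long.

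Most chromatin genes were lower in BMSCs-OE-FNDC5. Of the 50 tested, 40 fell and 4 rose at an adjusted p under 0.05 by edgeR's quasi-likelihood test, whereas over all tested genes 38.8% were lower and 36.9% were higher. The 6 others did not pass. The counts of each family below are to be read against these shares of all tested genes, and against those of long genes given further on. The largest falls were those of Suz12, a core subunit of PRC2 (log2 fold change -2.53), Tet3, a methylcytosine dioxygenase (-1.90), Chd1, a remodeller of transcribed chromatin (-1.86), and Setd2, which trimethylates H3K36 (-1.85). With TMM scaling the 4 genes that rose did so by little, up to 0.31 for Kat2a. With an absolute log2 fold change over 1 asked as well, 19 chromatin genes were lower and 0 were higher, against 17.5% lower and 9.84% higher over all tested genes. The median log2 fold change was -0.69 over the 50 chromatin genes and -0.04 over all tested genes. At an unadjusted p under 0.05 the count of genes higher past the fold threshold was 0, as it was at an adjusted p by DESeq2 and by limma-voom. Fewer cells that express a gene and less of its RNA per cell cannot be told apart in these bulk libraries.

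The libraries of the groups did not overlap for 44 of the 50 chromatin genes, 40 of them lower and 4 higher in BMSCs-OE-FNDC5. Over all tested genes the groups did not overlap for 78.3%, with 40.4% lower and 37.9% higher. Groups without overlap were therefore common in these data.

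The 4 rises depended on the scaling of the libraries. When counts were scaled by total count alone, 48 chromatin genes were lower and 0 were higher (55.4% and 22% of all tested genes), and 29 were lower and 0 higher past the fold threshold (27.6% and 3.99% of all tested genes). On that scale the median of all tested genes moved by -0.37. Kat2a (-0.063) did not pass there, and Hdac5 (-0.14), Kat5 (-0.20) and Hdac3 (-0.20) were lower.

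**Figure D1:**
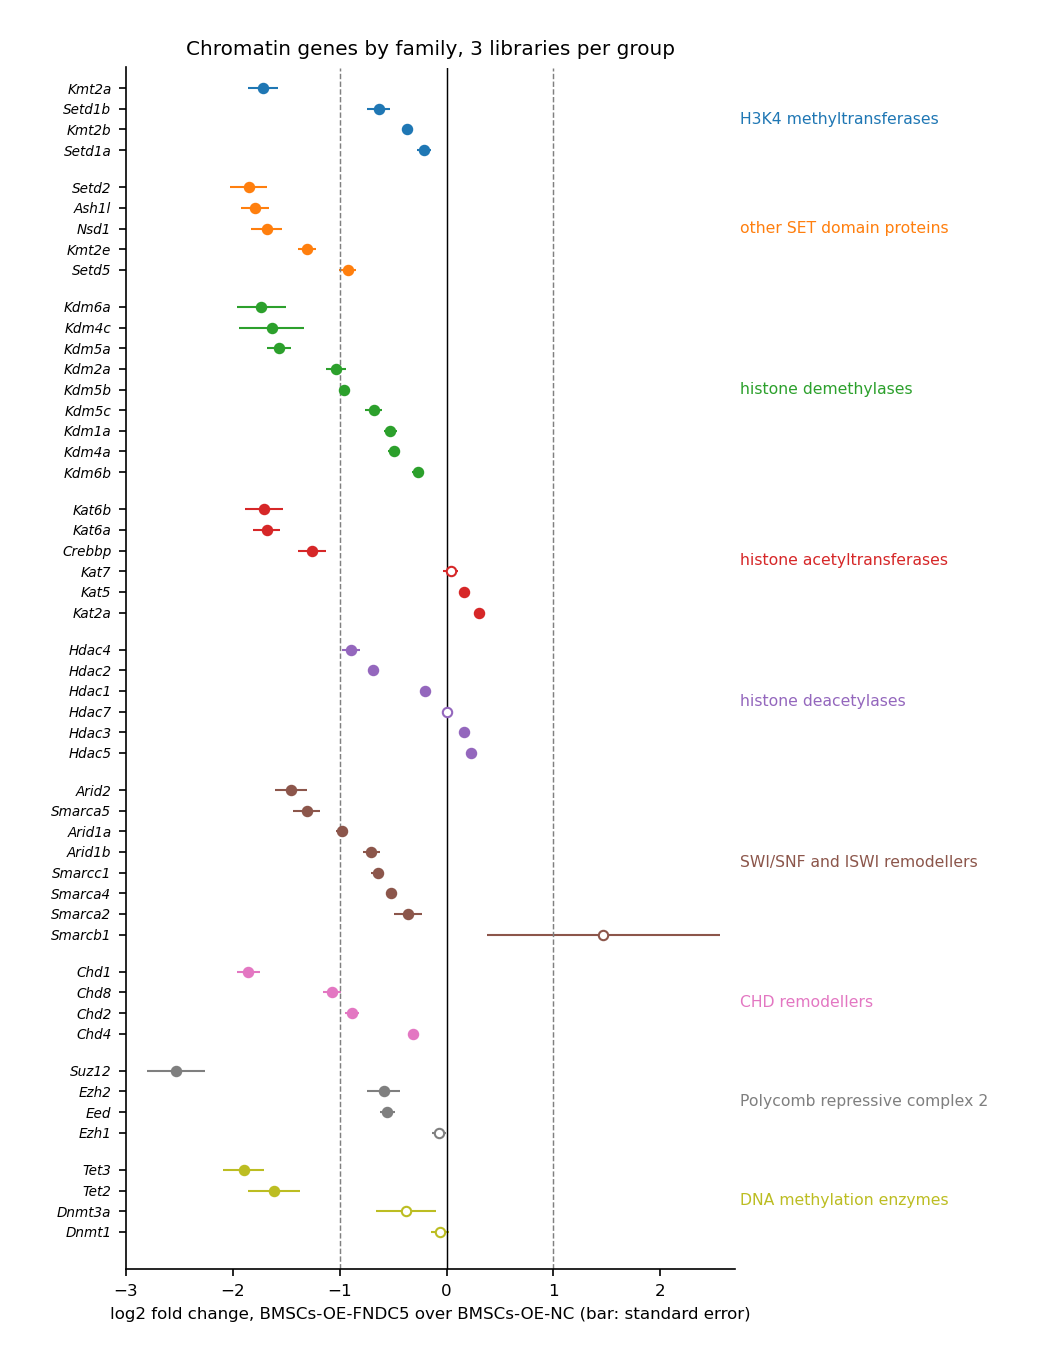
Log2 fold change in BMSCs-OE-FNDC5 relative to BMSCs-OE-NC for the 50 tested chromatin genes in 9 families (points, with the standard error as bars). Filled points passed an adjusted p under 0.05, and dashed lines mark a log2 fold change of -1 and 1. The points lie below 0 in most families, from -2.53 for Suz12 to 0.31 for Kat2a among genes that passed, and Smarcb1 has by far the widest error.

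H3K4 methyltransferases mark promoters and enhancers of active genes. All 4 tested members fell, with a median of -0.50, and only Kmt2a fell past the fold threshold. Kmt2a, the founding mixed-lineage leukaemia methyltransferase (chromosome 8, 49114990 to 49158971 in the coordinates of the table, which names no build), had 4.03, 4.23 and 5.17 CPM in BMSCs-OE-FNDC5, against 13.4, 16.5 and 14.3 CPM in BMSCs-OE-NC (log2 fold change -1.72, standard error 0.14, adjusted p = 7.2e-07). All BMSCs-OE-FNDC5 libraries were below all BMSCs-OE-NC libraries by a wide margin. Its close relative Kmt2b fell much less (-0.37), as did Setd1b (-0.63), a catalytic subunit of COMPASS. Setd1a, the other such subunit, fell least, with 41.0, 34.0 and 35.5 CPM in BMSCs-OE-FNDC5, against 43.3, 42.2 and 42.6 CPM in BMSCs-OE-NC (log2 fold change -0.21, standard error 0.07, adjusted p = 0.015). Its highest BMSCs-OE-FNDC5 library lay only slightly under the lowest BMSCs-OE-NC library, and the fall did not pass with DESeq2 or without the second or the third BMSCs-OE-FNDC5 library. A row named AABR07059168.2, described in the table as lysine methyltransferase 2C and not counted here because its symbol is not on the list, had 31, 32 and 39 counts in BMSCs-OE-FNDC5 and 84, 116 and 102 counts in BMSCs-OE-NC.

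The other SET domain proteins fell together, 5 of 5, with a median of -1.68, and 4 passed the fold threshold. Setd2 (chromosome 8, 118803075 to 118888224) had 3.24, 5.32 and 4.44 CPM in BMSCs-OE-FNDC5, against 13.7, 16.1 and 17.1 CPM in BMSCs-OE-NC (log2 fold change -1.85, standard error 0.17, adjusted p = 2.1e-06). The groups were well separated, although the BMSCs-OE-FNDC5 libraries spread among themselves. Ash1l and Nsd1, which methylate H3K36, changed by -1.79 and -1.68. Kmt2e, which binds H3K4me3, changed by -1.31. Setd5, a nuclear SET domain protein, fell least, with 23.5, 20.3 and 23.7 CPM in BMSCs-OE-FNDC5, against 44.5, 38.5 and 45.6 CPM in BMSCs-OE-NC (log2 fold change -0.93, standard error 0.08, adjusted p = 1.5e-06). Even this smallest fall of the family left the groups apart in all 6 libraries.

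Every tested histone demethylase was lower, 9 of 9, with a median of -0.96, and 4 of them were past the fold threshold. Among the H3K27 demethylases Kdm6a, an X-linked gene, had 1.98, 1.84 and 1.06 CPM in BMSCs-OE-FNDC5, against 5.06, 5.28 and 5.96 CPM in BMSCs-OE-NC (log2 fold change -1.73, standard error 0.23, adjusted p = 3.7e-05). Kdm6b, which is induced in inflammation, had 38.6, 35.5 and 36.4 CPM in BMSCs-OE-FNDC5, against 43.7, 46.5 and 42.8 CPM in BMSCs-OE-NC (log2 fold change -0.27, standard error 0.06, adjusted p = 0.0011), the smallest fall of the family. Both were lower in every BMSCs-OE-FNDC5 library, but Kdm6b stood at a far higher level and moved little. The H3K4 demethylases ranked Kdm5a (-1.57), Kdm5b (-0.96) and Kdm5c (-0.68), and Kdm1a, the flavin-dependent demethylase of H3K4, changed by -0.53. Of the enzymes that act on H3K9 and H3K36, Kdm4c changed by -1.64 and Kdm4a by -0.49. Kdm2a, a demethylase of H3K36, changed by -1.04. Kdm4c was among the 10% of tested genes with the most variable counts, where the test made too many false calls on simulated data.

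**Figure D2:**
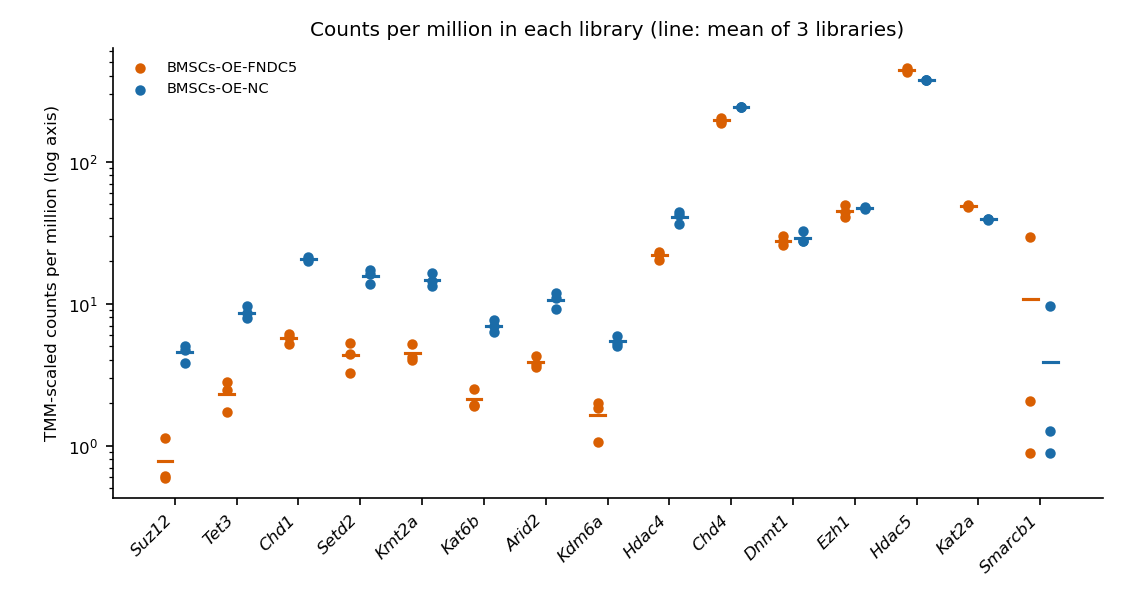
TMM-scaled CPM (log axis) of 15 chromatin genes in each library, BMSCs-OE-FNDC5 on the left and BMSCs-OE-NC on the right of each gene, with the mean of 3 libraries as a line. Suz12 to Chd4 are lower in every BMSCs-OE-FNDC5 library, Hdac5 and Kat2a are higher in every one, Dnmt1 and Ezh1 overlap, and Smarcb1 has 1 high library in each group.

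The histone acetyltransferases split. Of 6 tested, 3 fell past the fold threshold, 2 rose and 1 did not pass. Kat6b, the catalytic subunit of the MORF complex, had 1.92, 1.91 and 2.52 CPM in BMSCs-OE-FNDC5, against 6.29, 7.62 and 6.92 CPM in BMSCs-OE-NC (log2 fold change -1.71, standard error 0.18, adjusted p = 5.1e-06). Its paralogue Kat6a (-1.68) and the coactivator Crebbp (-1.26) also fell. Kat2a, the acetyltransferase of SAGA (chromosome 10, 88611586 to 88619537), had 48.3, 49.6 and 48.2 CPM in BMSCs-OE-FNDC5, against 39.7, 39.7 and 38.6 CPM in BMSCs-OE-NC (log2 fold change 0.31, standard error 0.05, adjusted p = 8.9e-05). With TMM scaling the rise exceeded the spread within BMSCs-OE-FNDC5 (SD 0.772 CPM) and within BMSCs-OE-NC (SD 0.615 CPM, n = 3 each), and with library totals alone it was lost. Kat5, the catalytic subunit of NuA4, changed by 0.17 and did not pass with upper-quartile scaling. It overlaps Rnaseh2c on the opposite strand, which also rose, but only at the gene ends (Kat5 begins at base 220967796 and Rnaseh2c ends at 220967825). The strand setting of the counting was not stated, so reads within that short stretch might not be separated. Rnaseh2c had 201 to 210 counts in BMSCs-OE-FNDC5 and 119 to 150 in BMSCs-OE-NC. The part of the overlap in the change of Kat5 was not tested. Kat7, which acetylates histones at replication origins, had 49.3, 47.3 and 44.7 CPM in BMSCs-OE-FNDC5, against 41.1, 48.1 and 48.2 CPM in BMSCs-OE-NC (log2 fold change 0.04, standard error 0.07, adjusted p = 0.61), and its groups overlapped.

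Histone deacetylases had the median nearest to 0 among the families, -0.10 over 6 tested genes, of which 3 fell, 2 rose and 1 did not pass, none of them past the fold threshold. Hdac4, a class IIa deacetylase that shuttles between cytoplasm and nucleus, had 23.1, 20.3 and 22.3 CPM in BMSCs-OE-FNDC5, against 36.2, 44.1 and 41.8 CPM in BMSCs-OE-NC (log2 fold change -0.89, standard error 0.09, adjusted p = 2.4e-06). Hdac5, of the same class (chromosome 10, 90140183 to 90151042), had the highest level per length of all tested chromatin genes, 150 ± 4.5 FPKM in BMSCs-OE-FNDC5 and 126 ± 0.60 FPKM in BMSCs-OE-NC (SD, n = 3 each). In CPM it had 439, 453 and 427 CPM in BMSCs-OE-FNDC5, against 377, 375 and 375 CPM in BMSCs-OE-NC (log2 fold change 0.23, standard error 0.03, adjusted p = 2.1e-05). With TMM scaling these class IIa genes thus moved in both directions, and Hdac7, a further class IIa gene of the list, had 85.9, 84.5 and 79.0 CPM in BMSCs-OE-FNDC5, against 84.7, 84.7 and 79.4 CPM in BMSCs-OE-NC (log2 fold change 0.00, standard error 0.05, adjusted p = 0.95). Of the class I enzymes, Hdac2 (-0.69) and Hdac1 (-0.21), which share the NuRD and Sin3 complexes, fell, and Hdac3 (0.17), the enzyme of the NCoR complex, rose with TMM scaling but did not pass with upper-quartile scaling. Hdac6, a cytoplasmic deacetylase of tubulin, had 0, 0 and 3 counts in BMSCs-OE-FNDC5 and 0 in every BMSCs-OE-NC library, at or under the limit of 3 counts that a library can tell from 0.

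Of 8 tested subunits of SWI/SNF and ISWI remodellers, 7 fell, with a median of -0.67, and 2 of them were past the fold threshold. Arid2, a subunit of the PBAF form of SWI/SNF, had 4.30, 3.75 and 3.58 CPM in BMSCs-OE-FNDC5, against 10.9, 11.9 and 9.09 CPM in BMSCs-OE-NC (log2 fold change -1.45, standard error 0.15, adjusted p = 5.3e-06). Smarca5, the ATPase of ISWI, changed by -1.31. The ATPases of SWI/SNF itself fell less, by 0.52 for Smarca4 and 0.36 for Smarca2 on the log2 scale (the fall of Smarca2 did not pass with DESeq2), and Smarcc1, a scaffold subunit, changed by -0.64. The large DNA-binding subunits Arid1a and Arid1b changed by -0.98 and -0.70.

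Smarcb1, a core subunit of SWI/SNF, did not pass and had the only positive fitted value of its family. It had 2.05, 0.887 and 29.5 CPM in BMSCs-OE-FNDC5, against 0.884, 9.57 and 1.26 CPM in BMSCs-OE-NC (log2 fold change 1.47, standard error 1.09, adjusted p = 0.24). A single library in each group was high, and the other BMSCs-OE-FNDC5 libraries lay within the range of BMSCs-OE-NC. Its table row is on an unplaced contig and overlaps Derl3 on the opposite strand. Without the second BMSCs-OE-NC library it passed both thresholds as higher, so that 1 chromatin gene was then higher past both, against 0 with all libraries.

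The CHD remodellers fell in 4 of 4 tested cases, 2 of them past the fold threshold, with a median of -0.98. Chd1 (chromosome 1, 57692836 to 57755485) had 6.15, 5.80 and 5.17 CPM in BMSCs-OE-FNDC5, against 21.3, 19.9 and 20.8 CPM in BMSCs-OE-NC (log2 fold change -1.86, standard error 0.11, adjusted p = 3.7e-08). The BMSCs-OE-FNDC5 libraries held about the same level as each other, far under BMSCs-OE-NC. Chd8, which binds beta-catenin, changed by -1.07 and Chd2, a close relative of Chd1, by -0.88. Chd4, the ATPase of NuRD, fell least, with 194, 188 and 203 CPM in BMSCs-OE-FNDC5, against 244, 242 and 241 CPM in BMSCs-OE-NC (log2 fold change -0.31, standard error 0.03, adjusted p = 5.9e-06). Chd7 had 0 counts in all 6 libraries, which allows up to 0.205 CPM in BMSCs-OE-FNDC5 and up to 0.152 CPM in BMSCs-OE-NC at 3 counts a library, for counting error only.

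Within PRC2, Suz12 fell most. Suz12 (chromosome 10, 67325347 to 67369668) had 0.595, 0.614 and 1.13 CPM in BMSCs-OE-FNDC5, against 3.83, 5.03 and 4.75 CPM in BMSCs-OE-NC (log2 fold change -2.53, standard error 0.27, adjusted p = 6.5e-06), which rest on 9, 9 and 17 counts in BMSCs-OE-FNDC5 and 78, 101 and 94 counts in BMSCs-OE-NC. It was the only tested chromatin gene with fewer than 10 counts in a library. Eed, which reads H3K27me3, changed by -0.56, and the catalytic subunit Ezh2 by -0.59. Ezh1, the alternative catalytic subunit of resting cells, had 41.1, 49.4 and 44.2 CPM in BMSCs-OE-FNDC5, against 46.8, 47.7 and 46.7 CPM in BMSCs-OE-NC (log2 fold change -0.07, standard error 0.06, adjusted p = 0.35), and its groups overlapped. Per length, Ezh1 was the higher of the catalytic subunits in both groups.

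The enzymes of DNA methylation were divided by kind. The dioxygenases Tet3 and Tet2 fell, and the methyltransferases Dnmt1 and Dnmt3a did not pass. Tet3 (chromosome 4, 115066309 to 115157263) had 1.72, 2.46 and 2.78 CPM in BMSCs-OE-FNDC5, against 7.86, 9.57 and 8.54 CPM in BMSCs-OE-NC (log2 fold change -1.90, standard error 0.19, adjusted p = 3.8e-06). Tet2 changed by -1.62, and its level was low. Tet1 had 0, 1 and 2 counts in BMSCs-OE-FNDC5 and 6, 5 and 9 counts in BMSCs-OE-NC, too few to test. Dnmt1, which copies methylation to the new strand after replication, had 27.6, 29.9 and 26.0 CPM in BMSCs-OE-FNDC5, against 27.5, 32.3 and 27.4 CPM in BMSCs-OE-NC (log2 fold change -0.06, standard error 0.08, adjusted p = 0.51). Dnmt3a, which methylates new sites, had 1.85, 4.30 and 2.85 CPM in BMSCs-OE-FNDC5, against 3.24, 4.73 and 3.74 CPM in BMSCs-OE-NC (log2 fold change -0.38, standard error 0.28, adjusted p = 0.24), and the groups of both genes overlapped. That Tet genes changed and Dnmt genes did not pass is a statement on each gene's own test, and the difference between the kinds was not tested.

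Gene length, as the table gives it for each gene, went along with these changes. Of the 50 chromatin genes, 29 lay in the eighth of tested genes with the greatest length (4723 to 29464 bases). There 28 of the 29 fell, 16 of them past the fold threshold, and the remaining one was Dnmt1. Of all genes in that eighth, 73.4% were lower and 42.1% were lower past the fold threshold. The median log2 fold change there was -1.07 for the chromatin genes and -0.84 for all genes. The 29 genes therefore followed a direction that most genes of their length took.

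Shorter chromatin genes were mixed. Up to 4000 bases, 8 of 15 fell and 4 rose, with a median of -0.21, whereas all genes of that length had a median of 0.11 with 31.7% lower and 42.5% higher. Over 4000 bases, 32 of 35 fell and 0 rose, with a median of -1.04 against -0.71 for all such genes, 68.3% of which were lower. Over 8000 bases all 11 fell, 8 past the fold threshold, with a median of -1.57. All 252 tested genes of that length had a median of -1.12, with 80.2% lower and 54.8% lower past both thresholds. The 4 that rose, Kat2a, Hdac5, Kat5 and Hdac3, had lengths of 3059, 2931, 1864 and 1800 bases. Suz12, with the largest fall, had only 2223 bases.

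Across the 50 chromatin genes, which are not independent replicates and share the same 6 libraries, Spearman's correlation between gene length and log2 fold change was -0.56, and it was -0.44 across all 12104 tested genes. With the genomic span from the first to the last base of the gene the correlation was -0.61 over the chromatin genes and -0.41 over all. With the mean FPKM over the 6 libraries it was 0.74 and 0.42, so that genes at a low level per length were those with the larger falls. Length and level were themselves related (Spearman's correlation -0.52 over the chromatin genes and -0.35 over all), and the mean level contains both groups.

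**Figure D3:**
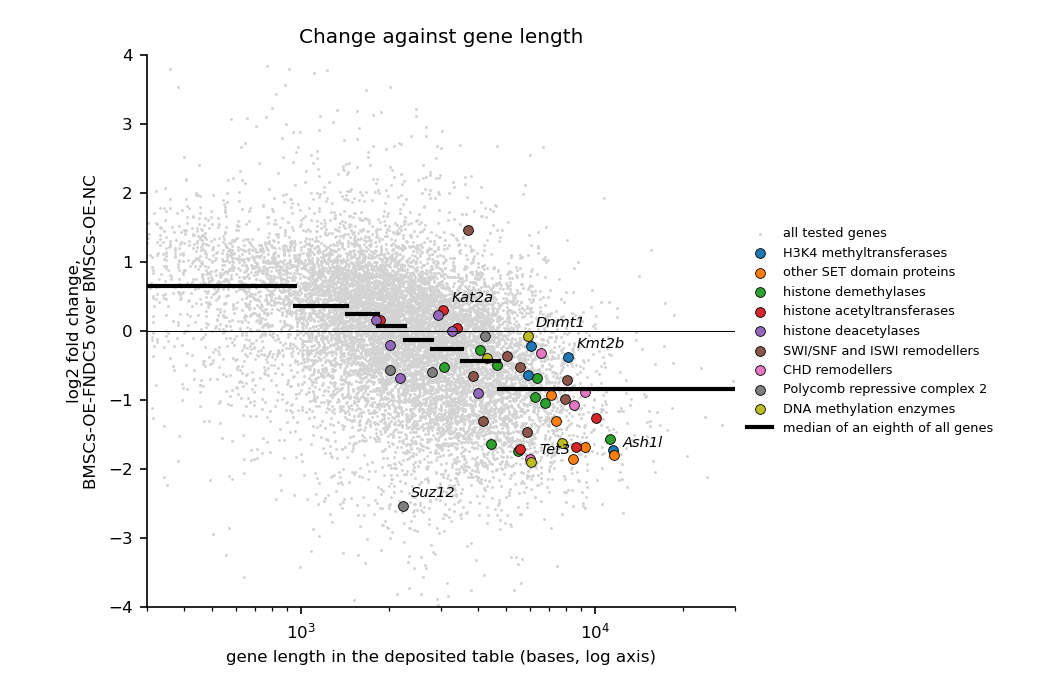
Log2 fold change in BMSCs-OE-FNDC5 relative to BMSCs-OE-NC, against gene length in bases (log axis) for all tested genes (grey), the chromatin genes (coloured by family) and the median of each eighth of all genes by length (black lines). The median passes from 0.65 to -0.84 with length, and the chromatin genes cluster at the long end. 218 genes beyond the axes are not drawn, none of them a chromatin gene.

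When the trend of counts with gene length was removed from each library before the test, the direction of the chromatin genes was less uniform. Then 23 of 50 were lower and 14 were higher, against 30.8% lower and 40.7% higher over all tested genes, and 5 were lower and 0 higher past the fold threshold, against 11.1% and 8.92%. Their median was -0.15 and that of all genes was 0.09. Those 5 were Suz12 (-2.43), Tet3 (-1.11), Chd1 (-1.07), Kdm4c (-1.05) and Kdm6a (-1.01). Suz12 hardly moved, and its length of 2223 bases is close to the median of all tested genes, 2262 bases. Spearman's correlation with genomic span was then -0.45 and with mean FPKM 0.56 over the chromatin genes.

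Removing the trend left some genes of a family lower and others higher. H3K4 methyltransferases then had 1 of 4 lower and 2 higher, and other SET domain proteins 4 of 5 lower and 0 higher. Demethylases had 5 of 9 lower and 2 higher, acetyltransferases 2 of 6 and 3, and deacetylases 3 of 6 and 2. SWI/SNF and ISWI remodellers had 3 of 8 lower and 2 higher, and CHD remodellers 1 of 4 and 1. PRC2 and the DNA methylation enzymes each had 2 of 4 lower and 1 higher. All 4 other SET domain proteins past the fold threshold stayed lower (Setd2 -0.86, Ash1l -0.64, Nsd1 -0.64 and Kmt2e -0.39), and Setd5 no longer passed (-0.03). Kmt2a stayed lower (-0.57), whereas Kmt2b (0.60) and Setd1a (0.58) became higher. Chd1 stayed lower and Chd4 became higher (0.53). Kat6a (-0.68) and Kat6b (-0.98) stayed lower, and Kat2a (0.65) and Hdac5 (0.54) rose by more. Dnmt1 (0.71), Ezh1 (0.49), Kat7 (0.45) and Hdac7 (0.40) then passed as higher. Crebbp (-0.18), Arid1a (-0.02), Chd8 (-0.08) and Kdm2a (-0.17) did not pass in that fit. Whether the trend with length is a property of the cells or of the libraries was not tested.

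**Figure D4:**
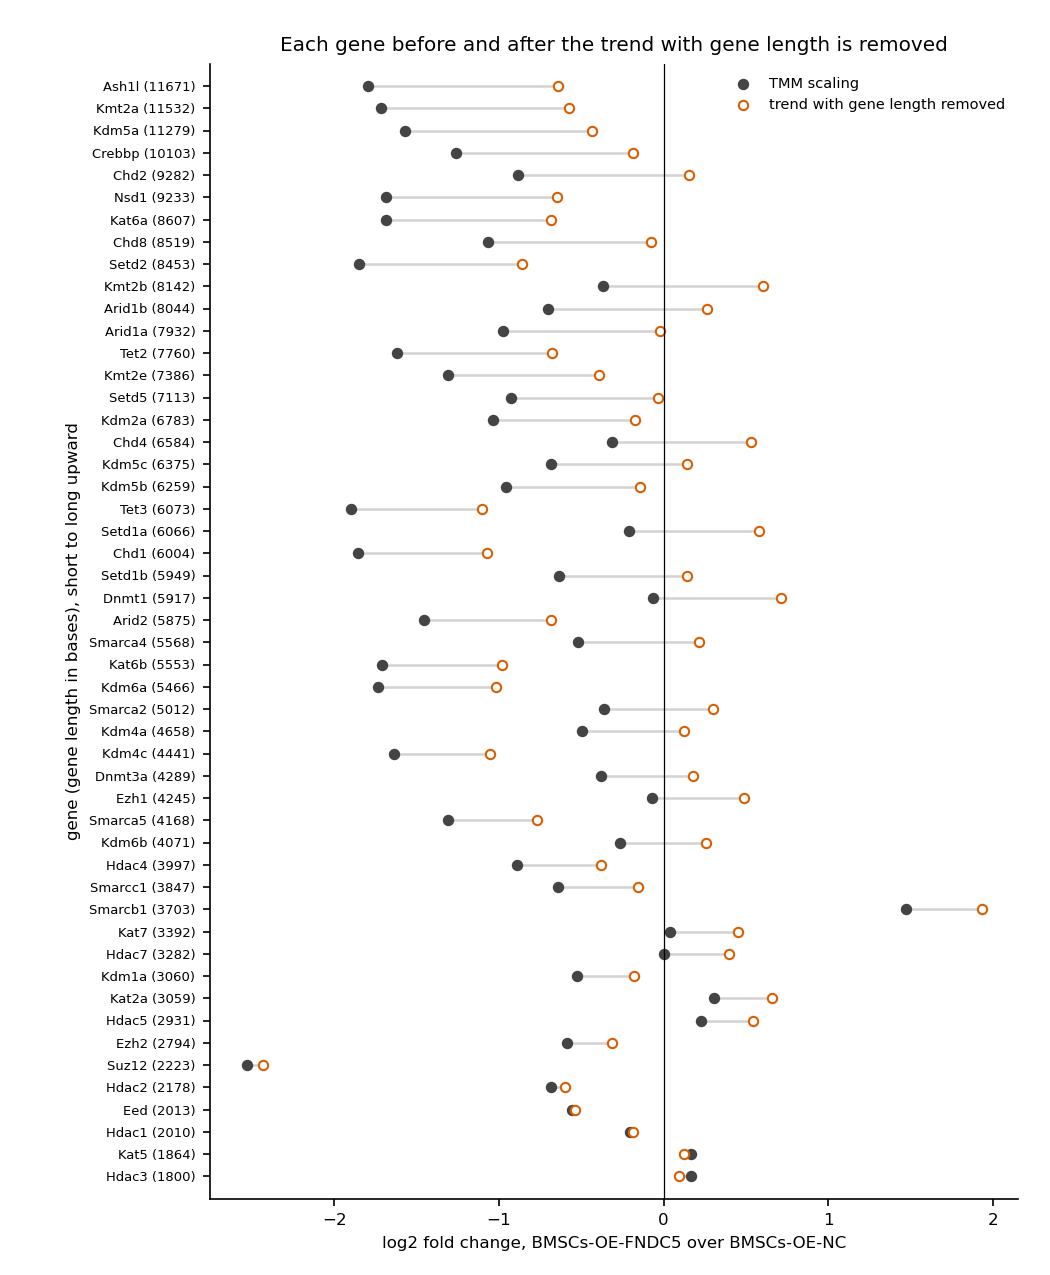
Log2 fold change in BMSCs-OE-FNDC5 relative to BMSCs-OE-NC for each tested chromatin gene with TMM scaling (filled) and after each library's trend with gene length was removed (open), ordered by gene length in bases. Long genes move toward 0 or past it, and Suz12 stays at -2.43.

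Close paralogues were also set against each other within a library, which leaves out the scaling of the library. The log2 ratio of FPKM was compared for 16 of 20 listed pairs, those with both genes tested. For 11 pairs the groups did not overlap. Each had a two-sided exact permutation p of 0.1 (0.145 adjusted over 16 pairs), which is the smallest that 3 libraries against 3 allow, so no pair could pass the threshold.

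Kdm6a to Kdm6b had log2 ratios of -4.71, -4.69 and -5.53 in BMSCs-OE-FNDC5 and of -3.53, -3.56 and -3.27 in BMSCs-OE-NC, a difference of -1.52. Kmt2a to Kmt2b had -3.99, -3.84 and -3.55 in BMSCs-OE-FNDC5 and -2.49, -2.31 and -2.51 in BMSCs-OE-NC, a difference of -1.36. Kdm4a to Kdm4c had 4.57, 6.34 and 5.12 in BMSCs-OE-FNDC5 and 4.05, 4.24 and 3.88 in BMSCs-OE-NC, a difference of 1.29. In each of these the gene with the lower level per length lost ground to its paralogue. The Kdm4a and Kdm4c lengths were close, 4658 and 4441 bases.

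Smaller shifts without overlap were those of Hdac4 to Hdac5 (-1.12), Chd1 to Chd2 (-0.97), Kdm5a to Kdm5c (-0.89) and Hdac4 to Hdac7 (-0.89). Ezh1 to Ezh2 (0.52), Hdac1 to Hdac2 (0.48) and Setd1a to Setd1b (0.42) moved in favour of the first gene, and Arid1a to Arid1b (-0.27) in favour of the second. Setd1a and Setd1b are nearly equal in length (6066 and 5949 bases), as are Arid1a and Arid1b (7932 and 8044 bases) and Hdac1 and Hdac2 (2010 and 2178 bases). Chd1 lost ground although it is the shorter gene of its pair (6004 against 9282 bases). The groups overlapped for Kat6a to Kat6b, Smarca2 to Smarca4, Tet2 to Tet3, Kdm5b to Kdm5c and Dnmt1 to Dnmt3a.

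**Figure D5:**
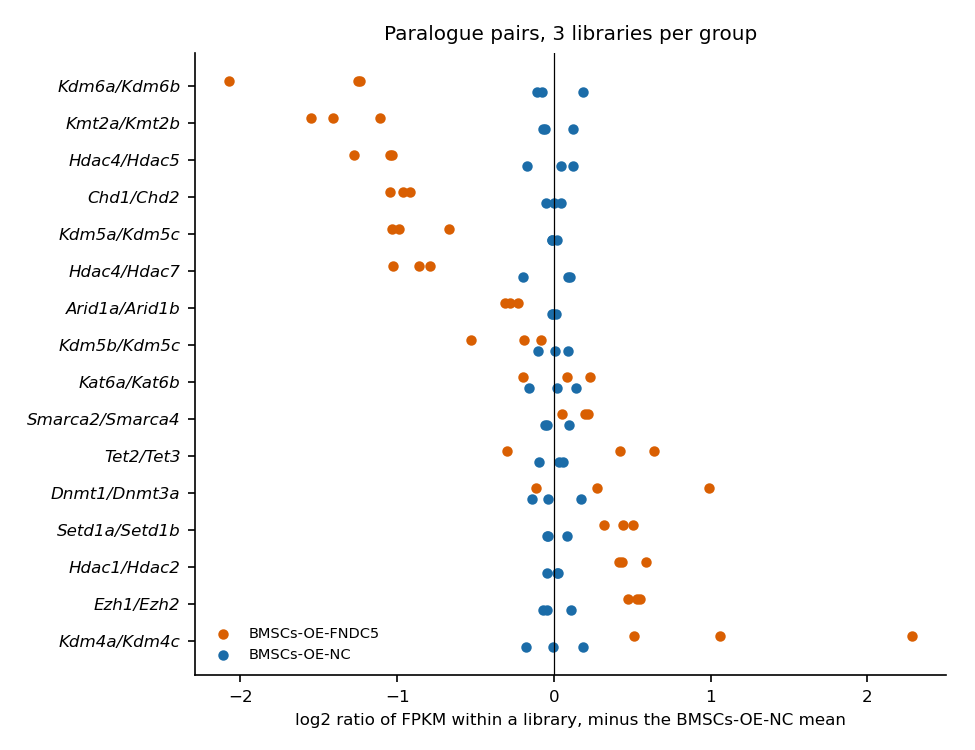
Log2 ratio of FPKM of 16 paralogue pairs in each library, BMSCs-OE-FNDC5 in orange and BMSCs-OE-NC in blue, as the difference from the BMSCs-OE-NC mean. The BMSCs-OE-FNDC5 libraries lie from -1.52 on average for Kdm6a to Kdm6b up to 1.29 for Kdm4a to Kdm4c, and 11 pairs have no overlap.

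Partner genes of these enzymes were taken from 12 further lists of 241 genes in all, of which 221 were tested. With TMM scaling 118 of these fell and 63 rose, where 38.8% and 36.9% of all tested genes were lower and higher. Their median was -0.32, and their median gene length was 2941 bases against 5722 bases for the chromatin genes. With the length trend removed, 78 were lower and 80 higher (30.8% and 40.7% of all tested genes), and with total count alone 152 were lower and 31 higher (55.4% and 22%). The counts and changes in each partner list are with TMM scaling unless another is named, and the counts are to be read against the same shares of all genes. With the length trend removed, Baz1b (0.32), Smarce1 (0.16) and Supt6h (0.40), named below as lower, passed as higher. Rbbp5 (-0.09), Psip1 (-0.24), Chd3 (-0.04), Smarcd1 (-0.14), Brd1 (-0.12), Bcor (-0.00) and Ubn1 (0.07) did not pass in that fit. The other named partner genes kept their direction and passed.

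Partners of PRC2 changed in both directions, with 3 of 6 lower and 2 higher (3 and 2 with the length trend removed). The accessory subunits Mtf2 (-2.52), Jarid2 (-1.33) and Aebp2 (-0.99) fell, and Phf1, which like Mtf2 recruits PRC2, rose (0.66). Of 19 tested subunits of PRC1, which ubiquitinates histone H2A, 12 fell and 4 rose (8 and 5 with the length trend removed). Bcor (-0.83), Rybp (-0.92) and the ubiquitin ligase Rnf2 (-1.03) were lower, and its paralogue Ring1 was higher (1.01).

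Of 12 COMPASS partners, 6 fell and 5 rose, against 1 lower and 6 higher with the length trend removed and 8 lower and 1 higher with total count alone. Wdr82 (-0.63), Rbbp5 (-0.58) and Psip1 (-0.72) fell, and Dpy30, a small core subunit, rose (1.00). In the NuRD, Sin3 and CoREST complexes 12 of 22 fell and 8 rose (9 and 10 with the length trend removed), with Chd3 (-0.93), Rbbp7 (-0.76) and Mbd2 (-0.68) lower and Sin3b (0.92) higher. Subunits of the acetyltransferase complexes fell in 14 of 24 cases and rose in 5 (10 and 7 with the length trend removed). Among them were Zzz3 (-2.23), Jade1 (-1.63) and Brd1 (-0.71), and Eny2 rose (0.60).

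Among the remodellers, 9 of 19 SWI/SNF partners fell and 5 rose. With the length trend removed 4 were lower and 6 higher, and with total count alone 14 were lower and 3 higher. Pbrm1, the bromodomain subunit that defines PBAF together with Arid2, fell (-2.20), as did Smarcd1 (-0.53) and Smarce1 (-0.32), and Bcl7c rose (1.06). Of 29 partners in ISWI, INO80 and SWR1, 17 fell and 8 rose (11 and 11 with the length trend removed). Bptf (-1.47), Morf4l2 (-0.55) and Baz1b (-0.54) were lower and the ATPase Ruvbl2 was higher (0.80). In the list of further CHD and SNF2 proteins 8 of 12 fell and 0 rose (5 and 2 with the length trend removed). Those with the smallest p were Atrx (-2.64), Chd6 (-1.67) and Smarcad1 (-1.46).

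Of 32 further histone methyltransferases and demethylases, 18 fell and 10 rose (13 and 13 with the length trend removed). The H3K9 demethylase Kdm3a (-1.75), its relative Jmjd1c (-1.87) and Prdm2 (-1.01) were lower, and the H3K9 methyltransferase Ehmt2 was higher (0.64). Of 15 further acetyltransferases and deacetylases, 4 fell and 8 rose (4 and 8 with the length trend removed, 6 and 6 with total count alone). Hdac11 (2.19) and the sirtuins Sirt3 (1.00) and Sirt2 (0.64) rose, and Hdac9, a class IIa deacetylase, fell (-2.85). Of 11 partners and readers of DNA methylation, 5 fell and 2 rose (5 and 2 with the length trend removed). Uhrf2 (-1.08), Zbtb38 (-2.05) and Mbd5 (-1.98) were lower, whereas Uhrf1, which brings Dnmt1 to hemimethylated DNA, was higher (1.04). Of 20 histone chaperones 10 fell and 6 rose (5 and 8 with the length trend removed), among them Supt16h (-1.32), Ubn1 (-0.75) and Supt6h (-0.44) as lower and Asf1b (2.02) as higher.

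Promoter sequences were matched by symbol for 42 of the 53 chromatin genes with a row, 40 of them tested. They are RefSeq windows of GRCr8, with 250 bases before and 50 after the start. They are shown for the largest falls and rises among matched genes that passed the test, with the motif GGGCGG or its reverse complement CCGCCC, the core of a GC box, in capitals wherever it occurs on either strand. Factors of the Sp family bind GC boxes, and Sp1 itself was lower (10.9 ± 0.997 CPM in BMSCs-OE-FNDC5 and 30.3 ± 1.29 CPM in BMSCs-OE-NC, SD, n = 3 each, log2 fold change -1.48, or -0.53 with the length trend removed). The 2 genes that fell most come first.
Suz12, chr10:65464719-65465018, plus strand: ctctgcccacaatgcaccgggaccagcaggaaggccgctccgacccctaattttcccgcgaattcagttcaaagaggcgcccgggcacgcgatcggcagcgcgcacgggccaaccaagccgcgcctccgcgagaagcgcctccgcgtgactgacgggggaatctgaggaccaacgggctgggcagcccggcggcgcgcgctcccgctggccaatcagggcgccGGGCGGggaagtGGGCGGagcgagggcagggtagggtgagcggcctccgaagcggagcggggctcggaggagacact
Tet3, chr4:117525446-117525745, minus strand: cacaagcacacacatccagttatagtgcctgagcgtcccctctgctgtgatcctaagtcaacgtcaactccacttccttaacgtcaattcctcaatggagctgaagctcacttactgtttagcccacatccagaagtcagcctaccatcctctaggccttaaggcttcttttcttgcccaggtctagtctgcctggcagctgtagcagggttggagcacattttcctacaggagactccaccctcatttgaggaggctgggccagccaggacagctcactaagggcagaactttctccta
Hdac5, chr10:87688005-87688304, minus strand: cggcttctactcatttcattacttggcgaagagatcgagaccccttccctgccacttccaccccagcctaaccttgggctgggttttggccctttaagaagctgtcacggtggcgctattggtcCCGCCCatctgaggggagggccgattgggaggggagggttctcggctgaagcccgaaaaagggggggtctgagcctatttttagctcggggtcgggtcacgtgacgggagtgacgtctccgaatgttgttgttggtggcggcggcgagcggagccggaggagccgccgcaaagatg
Kat5, chr1:212332344-212332643, minus strand: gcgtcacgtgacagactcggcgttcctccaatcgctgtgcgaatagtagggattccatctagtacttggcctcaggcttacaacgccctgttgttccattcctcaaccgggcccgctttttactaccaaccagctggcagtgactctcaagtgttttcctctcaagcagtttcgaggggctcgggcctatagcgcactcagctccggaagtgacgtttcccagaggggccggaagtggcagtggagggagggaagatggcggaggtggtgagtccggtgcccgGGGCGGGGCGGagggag

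Suz12 had 2 matches before the start, Hdac5 had 1, Kat5 had 2 that overlap each other and lie after the start, and Tet3 had 0. The motif was thus present in windows of genes that fell and of genes that rose. It occurred in 77.5% of the 40 tested chromatin genes, 65.1% of 8050 tested genes with a window and 33.1% of all 33469 windows. The median log2 fold change was -0.63 for the 31 tested chromatin genes with the motif and -0.68 for the 9 without it. The median GC content of the windows was 67.2% for the tested chromatin genes and 61.3% for all tested genes. A match says only that these letters are in the window.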

How the data were processed

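RNA-seq of 6 libraries was analysed. The deposited files hold whole-number gene counts and FPKM values, which the authors made from those counts and the gene length of the table. The submitters' notes list, with no role for each, Bowtie2 2.2.3, CASAVA, DESeq2, HISAT2 2.1.0, HTSeq 0.6.0, TopHat2 and mm10. Their extraction text mentions retinas, whereas the tables carry 32883 rat identifiers among 33508. Of 12 retina and neuron markers, 5 were at 0 in all libraries, Crx and Pax6 among them. The 2 that passed the filter, Stmn2 (log2 fold change 1.29) and Tubb3 (2.21), were higher in BMSCs-OE-FNDC5. Stmn2 had 621 to 656 counts there and 307 to 379 in BMSCs-OE-NC. Tubb3 had only 10 to 18 counts in BMSCs-OE-FNDC5 and 2 to 6 in BMSCs-OE-NC, and was among the 10% of tested genes with the most variable counts.

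Counts were tested in R 4.3.3 with edgeR 4.0.16 (filterByExpr with minimum count 10 and minimum total 15, TMM, quasi-likelihood test, condition as the only term). Benjamini-Hochberg adjustment covered all 12104 tested genes. The thresholds were an adjusted p of 0.05 and, where said, an absolute log2 fold change of 1. The length trend was a lowess curve (span 0.3) of log2 counts on log2 length in each library, used as an offset. Paralogue ratios were compared by exact permutation. Alternatives were DESeq2 1.42.0, limma 3.58.1 (voom, and trend on log2 of FPKM + 1 or 0.1), other scalings and filters, replicate number as a block and each library left out. A set without Smarcb1 and a robust dispersion fit were chosen after seeing the data. On simulated data the edgeR procedure held its error rate for most genes but made too many false calls among the 10% with the most variable counts. Of the tested chromatin genes, those hold Kdm4c, which was called, and Smarcb1 and Dnmt3a, which were not.

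All 57 chromatin genes were named. Values per library were given for the largest fall and the largest rise or smallest fall in each family, and for each gene that did not pass the test or the filter. Ratios per library were given for the 3 pairs with the largest difference. Each partner list names up to 3 genes with the smallest p in the direction of most, and 1 in the other. Genes and lists were chosen with earlier results of these data known. Python 3.11.15 and matplotlib 3.10.9 drew the figures. Limits at 0 counts cover counting error only.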

Additional observations from a re-analysis of the deposited data

How the results depend on the processing

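The direction of most chromatin genes held under RLE scaling, limma-voom, no filter, a robust dispersion fit and the set without Smarcb1. Removal of the length trend changed most. It gave 14 higher, 23 lower and 5 lower past both thresholds, a median of -0.15 and a Spearman's correlation with length of -0.15, where the offset itself takes length out. It changed the sign of Kmt2b 0.60, Setd1a 0.58, Setd1b 0.14, Kdm4a 0.12, Kdm5c 0.14, Kdm6b 0.26, Smarca2 0.30, Smarca4 0.21, Arid1b 0.26, Chd2 0.15, Chd4 0.53, Ezh1 0.49 and Dnmt1 0.71. Of these, Setd1b, Kdm5c, Smarca2 and Chd2 did not pass in that fit, and Ezh1 and Dnmt1 had not passed with TMM scaling. Dnmt3a also changed sign (0.18) and passed in neither fit. With library totals as the only scaling, 0 were higher, 48 were lower and 29 were lower past both thresholds (against 22%, 55.4% and 27.6% of all genes), with a median of -1.06, and it changed the sign of Kat2a -0.063, Kat5 -0.20, Kat7 -0.33, Hdac3 -0.20, Hdac5 -0.14 and Hdac7 -0.37, where Kat2a did not pass, and Kat7 and Hdac7 had not passed with TMM scaling. Upper-quartile scaling, which moved the median of all genes by -0.10, gave 2 higher and a median of -0.80. DESeq2 gave a median of -0.77, but over a different set of genes. Smarcb1 had no adjusted p there, and DESeq2 was run without the filter on low counts (14811 genes had an adjusted p). Gene by gene its values were close to those of edgeR, such as Chd2 (-0.86 against -0.88) and Arid1b (-0.68 against -0.70). That median therefore does not show larger falls. On log2(FPKM + 1) 2 were lower past both thresholds (5.83% of all genes), with a median of -0.57 and a correlation of -0.52, since the pseudocount shrinks changes of low genes, and on log2(FPKM + 0.1) the median was -0.66. With 10 counts in every library that correlation was -0.64 over 49 genes, as this filter left out Suz12, a short gene with the largest fall. Setd1a and Smarca2 did not pass with DESeq2 or log2(FPKM + 0.1).

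With each library left out, 4 to 5 were higher, 39 to 41 lower, 0 to 1 higher past both thresholds (Smarcb1, without the second BMSCs-OE-NC library) and 18 to 20 lower past both. Setd1a did not pass without the second or the third BMSCs-OE-FNDC5 library, nor Smarca2 without the first BMSCs-OE-FNDC5 or the first or the third BMSCs-OE-NC library, whereas Ezh1 and Dnmt3a passed as lower without the second BMSCs-OE-FNDC5 library. The median ranged from -0.78 to -0.70 and the correlation with length from -0.57 to -0.53. With the replicate block 4 were higher, 40 lower and 19 lower past both, and no call changed. Same-numbered libraries did not deviate together (correlations 0.02, -0.03 and -0.00). This gave no sign that the numbers pair them, but with 3 libraries in each group it cannot exclude a pairing. With the most shallow library at 16640635 counts, Tet1, Hdac6 and Chd7 were too low to compare.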
